A study of Mus musculus with 8 samples.

Results

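The miR-183 cluster is a group of 3 mouse miRNAs, miR-183, miR-96 and miR-182, and its levels were followed in brown adipose tissue of cold-exposed mice. The members were taken as all non-control probes whose name on the array was mmu-miR-183, mmu-miR-96 or mmu-miR-182. They made up 3 of the 566 mouse miRNAs on the array, and all 3 were among the 189 miRNAs with enough signal to be tested. The cold group held 3 male C57Bl6N mice, 8 weeks old, exposed to 8 °C for 24 h (mice 1 to 3). The room temperature group held 3 male mice of the same strain and age kept at 21 °C (mice 4 to 6). Whole tissue was taken, so fewer cells of a type and less RNA per cell cannot be told apart. Mouse 1 and mouse 4 were measured on 2 arrays each, which were averaged, so n = 3 mice per group throughout. Exposure lasted a single day, and no later time was compared.

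The 3 hairpins of this cluster lie close together on the same strand and are generally made from a common primary transcript. They are best known from sensory organs, where hair cells, photoreceptors and sensory neurons hold large amounts of them, and changes in the miR-96 seed cause hearing loss in mice and people. A miRNA finds its target transcripts mainly through its seed, the short stretch near its 5′ end. In cultured brown adipocytes of the mouse, miR-182 and the unrelated miR-203 are known to promote differentiation. In human breast cancer cells, miR-96 and miR-182 lower FOXO1, a transcription factor of fasting metabolism.

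The mature sequences are shown because the members resemble each other and were read by separate probes. They are RefSeq sequences placed on the mouse assembly GRCm38.p6, all on the minus strand, with the seed (bases 2 to 8) in capitals. MiR-183 lies at chr6:30169711-30169732, miR-96 at chr6:30169506-30169528 and miR-182 at chr6:30165962-30165986.
mmu-miR-183: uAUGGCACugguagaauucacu
mmu-miR-96: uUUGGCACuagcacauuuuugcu
mmu-miR-182: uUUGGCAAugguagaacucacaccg

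MiR-96 and miR-182 had the same letters at bases 2 to 7 and matched at 6 of the 7 seed positions. Among the 1679 mature mouse sequences of the table, only miR-1271-5p shared all 7 seed bases with miR-96, and it was not on the array. No other mature sequence carried the seed of miR-183. Over their whole length without gaps, miR-183 and miR-182 were identical at 18 of 22 positions, miR-183 and miR-96 at 13 of 22, and miR-96 and miR-182 at 12 of 23. The hairpins of Mir183 and Mir96 were 116 bases apart, those of Mir96 and Mir182 were 3453 bases apart, and the 3 spanned 3820 bases. The array also carried the other arm of 1 hairpin, miR-183* (now miR-183-3p), at chr6:30169672-30169693. The whole Mir183 hairpin at chr6:30169668-30169737 shows both arms in capitals, the miR-183 arm first.
Mir183 hairpin: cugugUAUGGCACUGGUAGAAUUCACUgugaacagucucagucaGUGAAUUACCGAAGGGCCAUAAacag

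The 8 arrays lay on 1 slide, with all cold samples in its first row and all room temperature samples in its second. Slide row and group therefore cannot be told apart. The upper quartile of the signal, used to scale the arrays (the 75th percentile), was 793 ± 150 units in cold mice and 1085 ± 286 units in room temperature mice (SD). Between 177 and 187 mouse miRNAs were well above background in cold mice, and between 200 and 227 in room temperature mice. The brown fat markers miR-193b, miR-365, miR-378 and miR-455 were well above background on all 8 arrays. Their summed signal before scaling ran between 12816 and 22669 units in cold mice and between 15587 and 26955 units in room temperature mice. Signal also varied with the position of a spot on the array, in opposite directions in the groups. Across the probes above background on all arrays, the median spot signal relative to its probe's mean in rows 1 to 16 averaged 0.079 on cold arrays and 0.944 on room temperature arrays. In rows 177 to 192 it averaged 0.914 on cold arrays and 0.098 on room temperature arrays. Across the 329 probes kept for the test, the change between groups correlated with the mean row of a probe's spots (r = 0.46, a description over probes of the same 8 arrays). After a correction for spot position, used below as an alternative, this r was -0.012.

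Detection differed among the members, and each was represented by 2 probes of 10 spots each. The miR-183 probe A_54_P2351 was the best detected: every spot used was well above background, 38 of 38 on cold arrays and 34 of 34 on room temperature arrays. Spots flagged as outliers are not in these counts. This probe had no spot in rows 1 to 64, where cold arrays were dimmer. In those rows A_54_P2348 of miR-182 had 5 spots and A_54_P1331 of miR-96 had 4. Differences in detection among the members were not tested apart from spot position. For miR-96, probe A_54_P1332 was above background on all 8 arrays, with 36 of 39 spots on cold arrays and 32 of 36 on room temperature arrays. The second miR-96 probe, A_54_P1331, passed on 3 of 4 cold arrays and on 4 of 4 room temperature arrays. MiR-182 was read by 1 usable probe, A_54_P2348, which passed on 4 of 4 cold arrays and on 3 of 4 room temperature arrays. It had 28 of 40 spots above background in each group. It therefore entered the test only through the cold arrays, on which its scaled level was also higher. The other miR-182 probe, A_54_P2347, had no spot above background, with a mean signal of 0.169 units in cold mice and -0.540 units in room temperature mice. The second miR-183 probe, A_54_P2350, passed on 2 of 4 cold arrays and on 3 of 4 room temperature arrays and stayed outside the test. The 4 probes of miR-183* had no spot above background on any array, and miR-96* and miR-182* were not measured here.

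No member passed the test between cold and room temperature as the arrays were scaled here. Of the 189 tested miRNAs, 29 passed (15.3%), 16 higher (8.47%) and 13 lower (6.88%) in cold. The count for the members was 0 of 3, and their median change was 0.06 (log2), beside -0.02 over all tested miRNAs. At an unadjusted p under 0.05, 1 of the 3 members and 62 of the 189 miRNAs would pass. Levels are given as log2 of the scaled signal, in which 0 is an array's 75th percentile, and changes are cold minus room temperature.

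MiR-182 was the member whose groups did not overlap. Its log2 level was -5.25, -4.97 and -5.22 in the 3 cold mice, against -5.48, -5.50 and -5.64 in the 3 room temperature mice. Every cold mouse lay above every room temperature mouse, as was the case for 38 of the 189 miRNAs (20.1%). Counting both directions, the groups did not overlap for 73 of the 189 (38.6%). The change of miR-182 was 0.40 ± 0.135 (SE), or 1.32-fold with a 95% confidence interval of 1.06 to 1.64. By limma its unadjusted p was 0.0192 and its adjusted p 0.0864, which misses the threshold of 0.05. In the scaled signal itself, miR-182 reached 2.84 ± 0.312% of the 75th percentile in cold mice and 2.18 ± 0.170% in room temperature mice (SD). An exact permutation test gave p = 0.1, the smallest it allows with 3 mice against 3 (2-sided). Before scaling there was no such separation: the signal was 16.5, 26.7 and 24.6 units in cold mice, against 23.2, 19.0 and 28.2 units in room temperature mice. These groups overlapped, and without scaling the change was -0.04. With scaling to 8 added control RNA probes it was 0.03. The median change of all tested miRNAs was -0.46 without scaling and -0.38 with the control RNAs. A scaling by array shifts all miRNAs of that array alike, so the 3 scalings hold the same distance between miR-182 and the median.

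The call for miR-182 also depended on how spots and repeated arrays were combined. The 2 arrays of mouse 4 gave log2 levels of -5.93 and -5.04, and those of mouse 1 gave -5.12 and -5.38. The gap of 0.89 within mouse 4 exceeded both the change between groups and the SD of 0.13 between mice of a group. Using only the first array of each mouse, the change was 0.59 with an adjusted p of 0.0450 by limma, and 10.6% of the tested miRNAs then passed as higher. That setting kept the first array of mouse 4, where the probe did not pass detection, with 5 of 10 spots above background. It left out the second array of mouse 4, where the probe passed. The next 3 settings were chosen after the row effect was seen. After a correction for spot position the change was 0.57 ± 0.132 with an adjusted p of 0.0425, with 8.47% of miRNAs called higher. With spots in the middle of the array alone it was 1.09, with an adjusted p of 0.0123 by limma and 11.8% called higher. The probe's spots in that part lay in rows 106, 126 and 137 only, and the median change of all tested miRNAs was 0.18. In rows 97 to 112 the relative spot signal averaged 1.21 on cold arrays and 1.15 on room temperature arrays. In rows 129 to 144 it averaged 1.36 and 0.97. With the median of the spots the change of miR-182 was 0.65, with an adjusted p of 0.0357 by limma and 6.88% called higher. The adjusted p of miR-182 was thus under 0.05 in these 4 settings and above it as first scaled and under the other settings tried, while the exact permutation p was 0.1 in each of the 4. Because the probe entered the test only through the cold arrays, these p-values are given as a description.

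MiR-183 varied widely between mice and showed no separation of the groups. Its log2 level was -3.81, -4.24 and -5.06 in cold mice, against -3.59, -4.92 and -4.78 in room temperature mice. The groups overlapped fully, with mouse 1 highest among the cold mice and mouse 4 highest among the room temperature mice. The change was 0.06 ± 0.417 (SE), with a 95% confidence interval of -0.91 to 1.03 and an adjusted p of 0.917 by limma. In the scaled signal, miR-183 stood at 5.14 ± 2.07% of the 75th percentile in cold mice and 5.09 ± 2.80% in room temperature mice (SD, exact permutation p = 1). The interval holds any change between 0.533-fold and 2.04-fold. The 2 arrays of one mouse differed by -0.06 in mouse 1 and by 0.25 in mouse 4, and the SD between mice of a group was 0.68. Its SE lay above those of 95.8% of the tested miRNAs or equalled them. The dimmer probe A_54_P2350 had r = 0.95 to the tested probe over the 6 mice, but it was not well above background on 3 of the 8 arrays and mouse 5 was at the floor value. It read 11.7 ± 2.23 units in cold mice and 17.2 ± 9.14 units in room temperature mice.

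MiR-96 did not pass the test, and its 2 probes gave changes of opposite sign. The mean of its probes was -3.79, -3.75 and -4.24 in cold mice, against -3.22, -3.91 and -3.84 in room temperature mice. Mouse 4 alone lay above all cold mice, so the groups overlapped. The change was -0.27 ± 0.223 (SE), with a 95% confidence interval of -0.79 to 0.25 and an adjusted p of 0.437 by limma. The scaled signal was 7.80 ± 1.64% of the 75th percentile in cold mice and 8.35 ± 2.42% in room temperature mice (exact permutation p = 0.8). By probe, A_54_P1332 gave a change of 0.22 and A_54_P1331 a change of -0.76. A_54_P1331 entered the test only through the room temperature arrays, where its scaled level was higher. The p-values for the mean of the 2 probes are therefore given as a description. Unscaled, A_54_P1332 read 90.1 ± 9.73 units in cold mice and 107.6 ± 32.0 units in room temperature mice. For A_54_P1331 the signal was 30.7 ± 7.28 units in cold mice and 71.3 ± 23.1 units in room temperature mice. The sign of the miR-96 change thus depended on which probe was read. After the correction for spot position the probes still differed in sign, at 0.11 and -0.46.

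**Figure D1:**
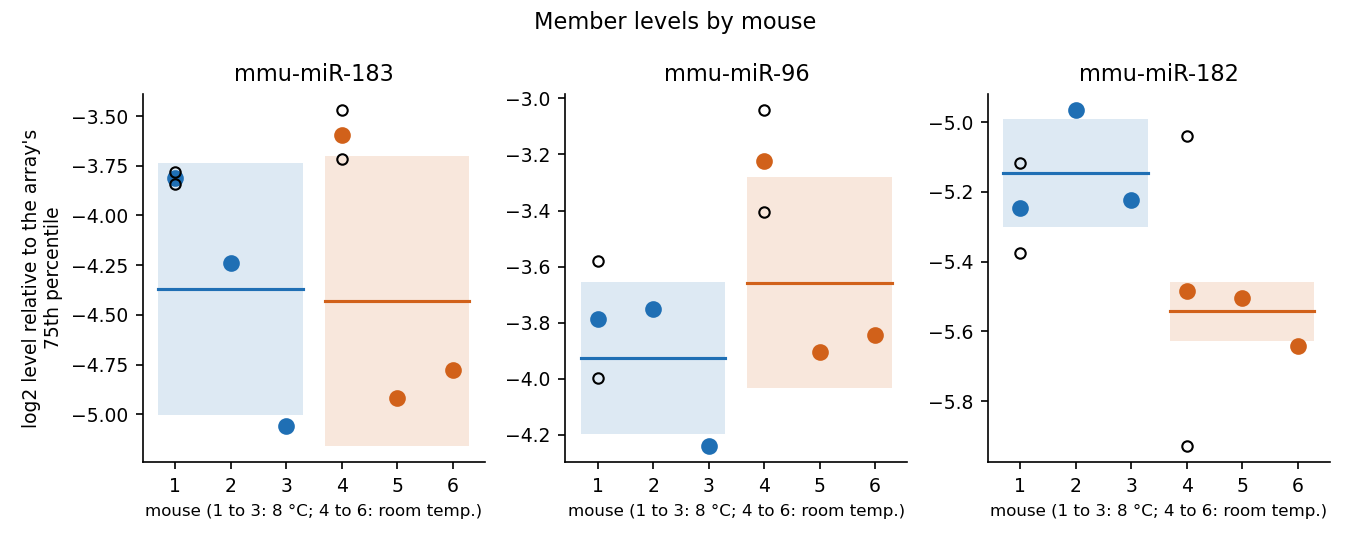
Log2 level of each member by mouse, with 0 at an array's 75th percentile, with the mice at 8 °C (blue) left of those at room temperature (orange). Filled points are mice, open circles the 2 arrays of mice 1 and 4, lines the group means and shading the SD; each panel has its own vertical scale. The groups overlap for miR-183 and miR-96 and not for miR-182, whose 2 arrays of mouse 4 lie at -5.93 and -5.04.

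The position effect could be read within single probes of the members, since the 10 spots of a probe were scattered over the array. In the first 64 rows of the array, the miR-96 probe A_54_P1331 read 7.43 ± 4.26 units in cold mice and 83.9 ± 28.5 units in room temperature mice. In rows 129 to 192 the same probe read 44.3 ± 9.46 units in cold mice and 19.9 ± 5.88 units in room temperature mice. The direction of the difference thus turned with the part of the array. The miR-182 probe A_54_P2348 turned likewise, with 10.97 ± 2.16 units in cold mice and 27.8 ± 4.41 units in room temperature mice in rows 1 to 64. In rows 129 to 192 it read 34.2 ± 9.86 units in cold mice and 13.6 ± 4.77 units in room temperature mice. In the central rows, 65 to 128, it read 34.2 ± 6.94 units in cold mice and 27.5 ± 11.6 units in room temperature mice, and the ranges overlapped. The other 2 probes that gave signal and had spots at both ends, A_54_P1332 of miR-96 and A_54_P2350 of miR-183, were also lower in cold in rows 1 to 64 and higher in cold on average in rows 129 to 192. The tested miR-183 probe had no spot in rows 1 to 64. In rows 65 to 128 its signal was 38.1 ± 9.10 units in cold mice and 56.8 ± 27.8 units in room temperature mice. In rows 129 to 192 it was 39.5 ± 10.4 units in cold mice and 49.9 ± 25.3 units in room temperature mice, so that the groups overlapped in both parts. Mean spot rows also differed among the tested probes: 83.8 for A_54_P1331, 86.8 for A_54_P2348, 112.1 for A_54_P1332 and 129.2 for A_54_P2351. The row effect within an array was estimated from spots of the same probe, and the position correction used that estimate. Whether the correction removed the whole effect on the members was not tested. Slide row and group coincide, so an effect of slide row on a whole array cannot be told apart from that of temperature.

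**Figure D2:**
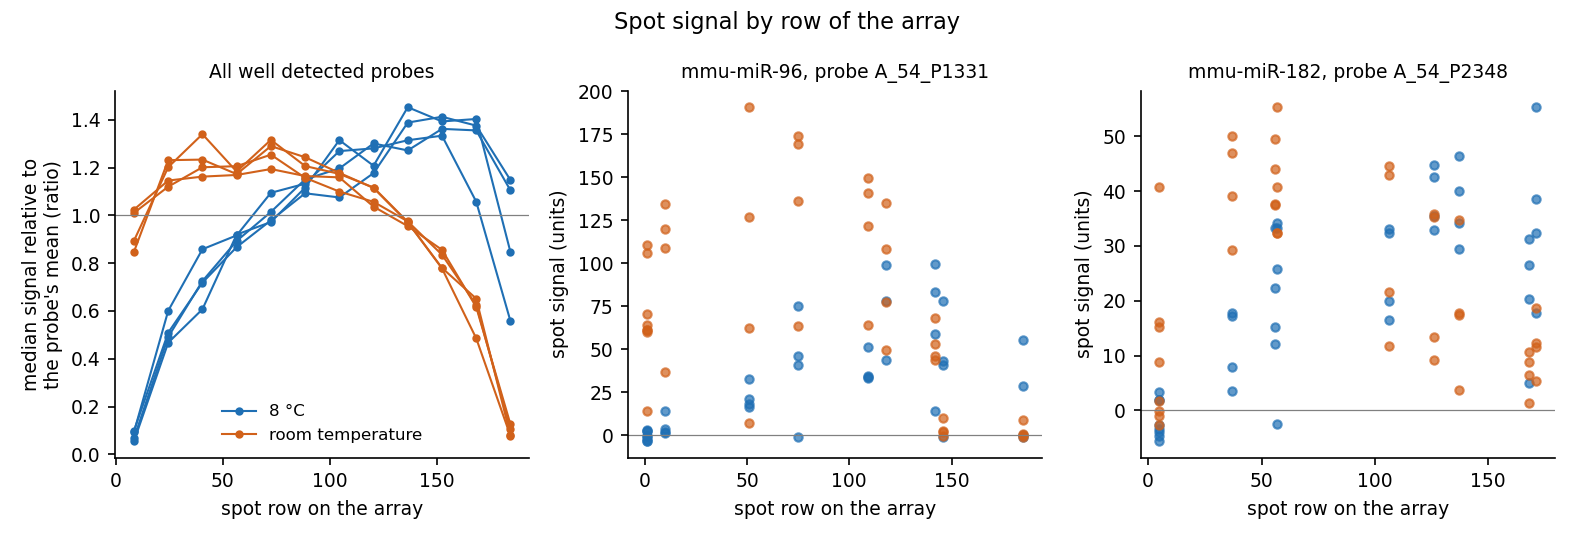
Spot signal against the row of the spot on the array, on arrays of mice at 8 °C (blue) and at room temperature (orange). The left panel gives, per array and band of 16 rows, the median signal relative to the probe's mean over all probes above background on all arrays (a ratio); the other panels show single spots of a miR-96 and a miR-182 probe in signal units. Cold arrays are dim in the first rows and room temperature arrays in the last.

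Ratios between members within a mouse do not depend on the scaling of the array. The log2 ratio of miR-182 over miR-96 was -1.46, -1.21 and -0.99 in cold mice, against -2.26, -1.60 and -1.80 in room temperature mice. These groups did not overlap, and the difference was 0.67 (exact permutation p = 0.1, the smallest possible, 0.3 after Benjamini-Hochberg adjustment over the 3 pairs). Both sides of this ratio used a probe kept only through the group where its scaled level was higher. These were A_54_P2348 of miR-182 (cold arrays) and A_54_P1331 of miR-96 (room temperature arrays). The separation and its p-value are therefore given as a description. With the brightest probe of each miRNA alone, which for miR-96 is A_54_P1332, the difference was 0.18 and the groups overlapped (exact permutation p = 0.5), and with a normexp background it was 0.34. MiR-183 over miR-96 was -0.02, -0.49 and -0.82 in cold mice, against -0.37, -1.01 and -0.94 in room temperature mice. This ratio overlapped, with a difference of 0.33 (exact permutation p = 0.3, adjusted 0.45). Its miR-96 side also included A_54_P1331, and with the brightest probe of each miRNA the difference was -0.16. MiR-182 over miR-183 was -1.44, -0.73 and -0.17 in cold mice, against -1.89, -0.59 and -0.86 in room temperature mice. It overlapped as well, with a difference of 0.34 (exact permutation p = 0.6, adjusted 0.6), and its miR-182 side was A_54_P2348. The p-values of both these ratios are likewise given as a description. No ratio could pass 0.05 with 3 mice against 3.

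Over the 6 mice, the levels of miR-183 and miR-96 were correlated, and those of miR-182 passed the test with neither. Pearson's r of miR-183 with miR-96 was 0.84 (exact permutation p = 0.00417, adjusted 0.0125 over 3 pairs), and Spearman's rho was 0.94 (p = 0.0167, adjusted 0.05). Taken as deviations from the group means, r was 0.96, which compares mice of the same temperature. Without mice 1 and 4, which lay farthest from the median of miR-183, r was 0.79 over 4 mice (exact permutation p = 0.292), a number of mice at which few values of r can pass. Leaving out mouse 1 or mouse 2 alone kept the call (r = 0.94 and 0.84, adjusted exact permutation p = 0.025 each). Leaving out mouse 3, 4, 5 or 6 alone gave r between 0.71 and 0.86 and ended the call, as shown by adjusted exact permutation p-values between 0.075 and 0.45 over 5 mice. Mice 1 and 4 were also the mice hybridised at both ends of their slide row, so mouse and place on the slide cannot be told apart. At the level of probes, A_54_P1332 of miR-96 correlated with both miR-183 probes (r = 0.95 and 0.88). The second miR-96 probe, A_54_P1331, did so less (r = 0.39 and 0.49) and had r = 0.11 to its partner for miR-96. With the position correction r of miR-183 with miR-96 was 0.97 (adjusted exact permutation p = 0.00417), and with the median of the spots it was 0.25 (adjusted 0.947). The call was also lost without scaling (r = 0.76, adjusted exact permutation p = 0.212) and with the control RNAs (r = 0.81, adjusted 0.163).

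MiR-182 showed no correlation past the test with either of the other two. With miR-96, r was -0.21 and rho 0.14 (exact permutation p = 0.742 and 0.803, adjusted 0.754 and 1). With miR-183, r was 0.16 and rho 0.03 (exact permutation p = 0.754 and 1, adjusted 0.754 and 1). Without mice 2 and 6, the farthest from the median of miR-182, r was -0.60 with miR-96 and -0.14 with miR-183 over 4 mice. The r with miR-183 depended on the processing, between -0.16 (middle spots) and 0.74 (normexp), and passed under no setting tried. For miR-182 the 2 arrays of one mouse differed by 0.89 in mouse 4 and by -0.26 in mouse 1. The SD between mice of a group was 0.13. With arrays of one mouse this far apart, these values cannot tell whether miR-182 varies together with the other members.

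**Figure D3:**
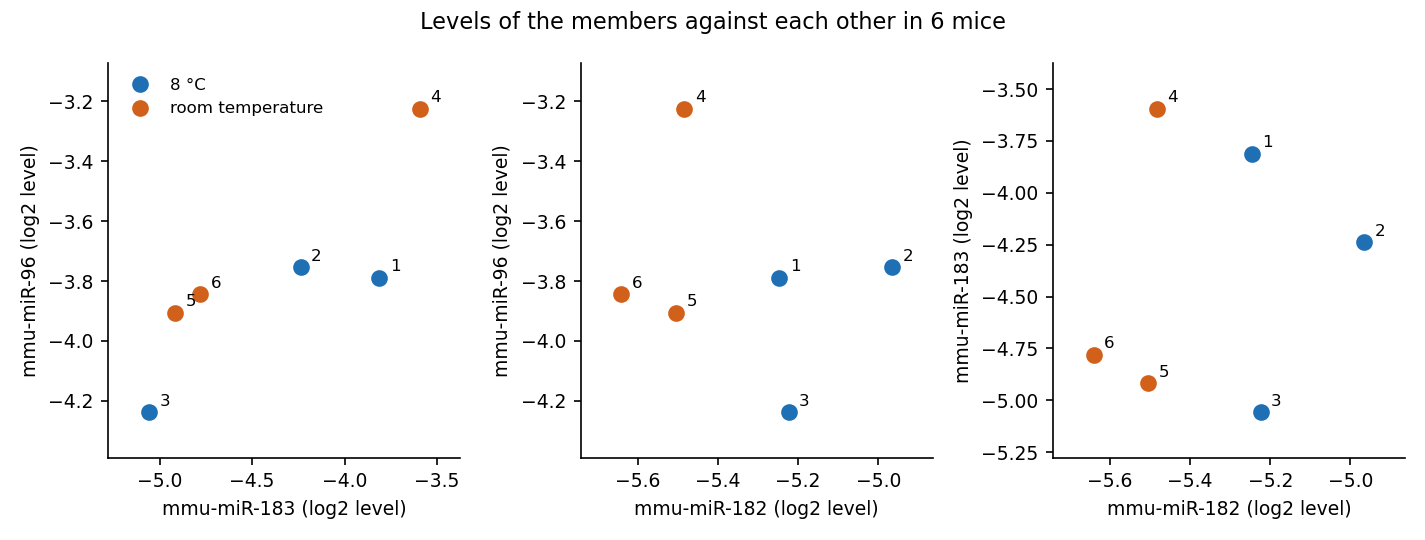
Log2 levels of the members plotted against each other, each point a mouse with its number, at 8 °C (blue) or room temperature (orange). MiR-183 and miR-96 lie along a line from mouse 3 to mouse 4 (r = 0.84), whereas the panels with miR-182 show no common order (r = -0.21 and 0.16).

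The tested miRNAs whose levels were most like each member over the 6 mice were then listed, as a description of values that share arrays and scaling. For miR-183, miR-96 came first (r = 0.84), before miR-155 (0.68) and miR-709 (0.67). For miR-96, the leading miRNAs were miR-30c-2* (0.84), miR-183 (0.84) and miR-21 (0.79). For miR-182 they were miR-30c-1* (0.98), miR-30d (0.95) and miR-15b (0.94). Of these, miR-30c-1* and miR-30d passed the test, with changes of 0.77 and 0.56 and an adjusted p of 0.0205 each by limma. MiR-182 itself ranked 36th among the miRNAs most like miR-183 and 89th among those most like miR-96.

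Other miRNAs of brown fat were set beside the members, from a list of 14 that are known to act in brown or beige adipocytes. All 14 were on the array and 10 were tested. Of these 10, 2 passed the test as higher in cold and 0 as lower, beside 8.47% higher and 6.88% lower over all tested miRNAs. By sign alone, 4 of the 10 changes were positive and 6 negative. The median change of the 10 was -0.04, beside -0.02 over all tested miRNAs. Without scaling, 0 tested miRNAs were called higher, and the change was 0.19 for miR-193b and 0.53 for miR-378. MiR-193b, which promotes brown fat differentiation in mouse cells, rose by 0.64 (adjusted p = 0.0129 by limma). MiR-378, encoded within the Ppargc1b gene, rose by 0.97 (adjusted p = 0.0219), and after the position correction its change was 0.57 with an adjusted p of 0.0956. MiR-203, which like miR-182 is known to promote brown adipocyte differentiation, had a change of 0.42 and an adjusted p of 0.140. MiR-365, made with miR-193b, had a change of -0.07, and miR-455, an inducer of brown adipogenesis, one of 0.13 (adjusted p = 0.840 and 0.741). Of 5 other miRNAs known to target Foxo1 transcripts, 3 were tested and 0 passed: miR-27a at -0.46 (adjusted p = 0.116), miR-223 at -0.38 (0.151) and miR-139-5p at 0.04 (0.863).

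Markers of cells other than adipocytes were examined because such cells can hold these miRNAs. Summed signals are unscaled, and without scaling the median change of all tested miRNAs was -0.46. As scaled, 15.3% of all tested miRNAs passed the test in either direction, and the median change of all tested miRNAs was -0.02. The 6 epithelial markers, the miR-200 family with miR-205, were above background on no array, with summed signals between -7.1 and -2.9 units in cold mice and between -5.6 and 2.2 units in room temperature mice. Of 7 neural and sensory markers, miR-124, miR-9, miR-375 and miR-211 were above background on no array. The other 3, miR-128, miR-7a and miR-204, were tested and 0 passed. Their changes were -0.49, -0.31 and 0.08, and after the position correction -0.56, 0.37 and 0.03. The summed neural signal lay between 143 and 210.0 units in cold mice and between 190.3 and 309 units in room temperature mice. All 7 leukocyte markers were tested, 0 passed and all 7 had negative changes, between -0.55 (miR-142-5p) and -0.02 (miR-150). After the position correction these changes lay between -0.38 (miR-142-5p) and -0.02 (miR-155). The leukocyte sums were between 1016 and 2194 units in cold mice and between 2482 and 3794 units in room temperature mice. All 4 skeletal muscle markers had negative changes, and 3 of them passed the test as lower in cold, beside 6.88% of all tested miRNAs. The muscle sums were between 3896 and 13310 units in cold mice and between 20989 and 48559 units in room temperature mice. After the position correction the changes of the 4 muscle markers were of similar size, -1.69 for miR-1, -1.75 for miR-133a, -1.77 for miR-133b and -2.10 for miR-206. Before it they were -1.73, -1.88, -1.97 and -2.05. Their adjusted p-values then lay between 0.0528 and 0.0784 by limma. The part of muscle or leukocyte RNA in the members' values was not tested.

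The plot of changes under 7 ways of processing sets the members side by side. MiR-183 kept an interval across 0 under every one of them, and its sign varied. MiR-96 was negative under these 7, with adjusted p-values between 0.0872 (control RNAs) and 0.880 (middle spots) by limma. It was positive under 3 settings that are not plotted, at 0.22 with the brightest probe, 0.22 with probes above background on all arrays and 0.084 with normexp. The negative values include A_54_P1331, which passed the filter only through the room temperature arrays, where it was higher. MiR-182 was positive under 6 of them and -0.04 without scaling, and it passed the threshold under 4.

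**Figure D4:**
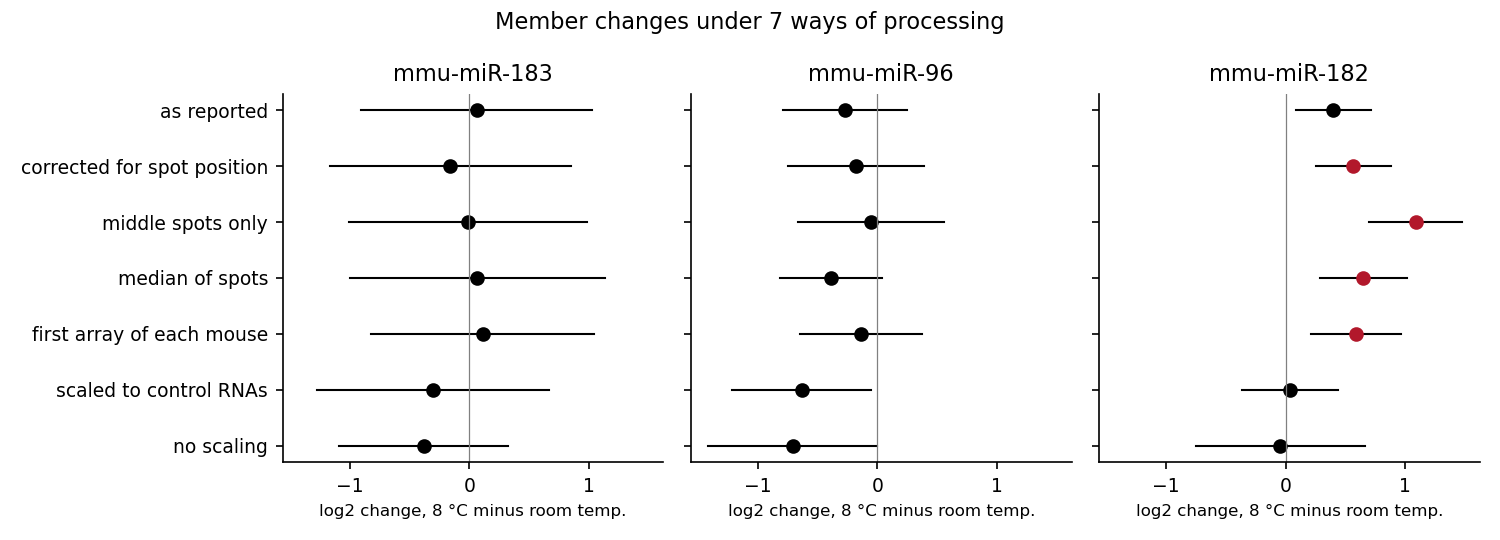
Change of each member (log2, mice at 8 °C minus mice at room temperature) with its 95% confidence interval from limma under 7 ways of processing; red points have an adjusted p under 0.05. All points of miR-183 and miR-96 are black, and those of miR-182 are red under 4 settings, with values between 0.57 and 1.09.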

How the data were processed

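Brown adipose tissue RNA of 6 mice was measured on 8 arrays of 1 colour (Cy3). The authors deposited scanner output with spot intensity on a linear scale after background subtraction, made with Agilent Feature Extraction 10.7.3.1 per the file headers (9.5.3.1 per the submitters' processing notes). The deposited value table held the same intensities. Control spots and outliers flagged by the software were dropped, and none was saturated. Spots of a probe were averaged, divided by the array's 75th percentile over the 267 probes above background on all arrays, floored at 0.01 and log2 transformed. A probe was kept (329 of 1712) when more than 0.5 of its spots passed the background flag on every array of 1 or both groups, and a miRNA was the mean of its kept probes. Arrays of one mouse were averaged.

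Changes were fitted over all 189 miRNAs with limma 3.58.1 in R 4.3.3 with Benjamini-Hochberg adjustment (threshold 0.05). Ratios and correlations used exact permutation tests over mice. The scripts were tested on simulated data. The number of arrays limits the precision. The position correction estimated each probe's level by least squares from its spots and the row and column factors of each array. The middle spots were rows 61 to 150 and columns 11 to 72. Members and lists were chosen with earlier results of these data known. Named miRNAs were the members, their other arms, 5 brown fat miRNAs and, per member, the 3 most correlated miRNAs, and the marker and Foxo1 lists were added to describe the tissue. Names are those of the array design, and sequences were matched by RefSeq name (3 of 3 members).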

Additional observations from a re-analysis of the deposited data

Results flagged for a closer look

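The probe A_54_P2350 of miR-183 was outside the tested set because too few of its spots were well above background, yet its mean signal exceeded the 95th percentile of single negative control spots (3.50 to 5.28 units) on each array. Its lowest signal over the 8 arrays was 8.44 units, in mouse 5 at room temperature. There 2 of 10 spots were well above background, and the brightest negative control spot reached 12.6 units. A mean over spots is less variable than single spots, so this is no test of detection.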

How the results depend on the processing

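No paired analysis was possible because the groups share no mouse numbers. Normexp was run on the median signals, and the planned run on mean signals was not made. No probe of miR-182 remained when only probes above background on all arrays were used. The position correction, middle spots, median of spots and normexp were chosen after seeing the data. The cause of these shifts was not tested. Dim spots limit the values, with 70% of the miR-182 spots above background. MiR-183 turned negative with the percentile over all probes (-0.012), no scaling (-0.38), control RNAs (-0.30), the position correction (-0.16) and middle spots (-0.0097). MiR-96 turned positive with normexp (0.084), with the brightest probe (0.22) and with probes above background on all arrays (0.22). MiR-182 was -0.043 without scaling and passed the threshold with the first array (0.59), the position correction (0.57), middle spots (1.09) and the median of spots (0.65). Higher calls numbered 0 without scaling, 3 with control RNAs, 2 with normexp, 2 without the filter and 10 with probes above background on all arrays. Lower calls numbered 22 (quantile), 47 (control RNAs), 4 (normexp), 8 (all probes), 8 (total signal per miRNA), 3 (no filter), 6 (all arrays), 8 (position correction) and 5 (middle spots). The ratio of miR-183 over miR-96 was -0.16 with the brightest probe. The correlation of miR-182 with miR-96 was 0.20 (all-probe percentile), 0.23 (quantile), 0.50 (no scaling), 0.35 (control RNAs), 0.67 (normexp) and 0.42 (brightest probe). The same correlation was -0.64 with the median of spots and -0.35 with the first array. That of miR-182 with miR-183 was -0.018 (total signal), -0.081 (first array), -0.040 (position correction), -0.16 (middle spots) and -0.031 (median of spots), but 0.74 (normexp), 0.51 (all-probe percentile) and 0.48 (quantile). That of miR-183 with miR-96 lost its call at 0.76 (no scaling), 0.81 (control RNAs), 0.95 (brightest probe) and 0.25 (median of spots). Leaving out each mouse in turn, the change ranged from 0.31 to 0.45 for miR-182, from -0.22 to 0.48 for miR-183 and from -0.39 to -0.05 for miR-96. Over the same repeats, r ranged from 0.71 to 0.94 for miR-183 with miR-96, from -0.39 to 0.052 for miR-182 with miR-96 and from -0.022 to 0.47 for miR-182 with miR-183. Ratios ranged from 0.48 to 0.81 (miR-182 over miR-96), from 0.12 to 0.53 (miR-183 over miR-96) and from -0.052 to 0.67 (miR-182 over miR-183). Calls ranged from 3 to 19 higher and from 5 to 14 lower: 6, 9, 8 and 3 higher without mouse 2, 3, 5 and 6, and 5 lower without each of these.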
